A study of Mus musculus with 35 samples.

Results

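Messenger RNA of 47 cell cycle genes was followed in Tregs, regulatory CD4+ T cells that keep immune responses in check, from 2 tissues. The genes were chosen by name as a module of cell cycle and CDK inhibitor genes, and all 47 were found among the 55011 symbols of the count table and passed the filter on low counts that left 15910 genes. They were sorted by role into 14 genes of DNA replication and nucleotide supply, 18 of G2 and mitosis, 9 G1 cyclins, kinases and E2F, and 6 inhibitors and pocket proteins. The series measured Tregs of visceral adipose tissue (VAT), the fat around the abdominal organs, and of spleen over the day. VAT libraries were made at Zeitgeber time (ZT, hours after lights on) 0, 4, 8, 12 and 16, with 3 libraries each, and at ZT20, with 2 libraries. Spleen libraries were made at the same 6 times, with 3 libraries each. All libraries came from wild-type C57BL/6 male mice, former breeders older than 35 weeks, kept under 12 h of light and 12 h of dark, and each library held RNA of 1000 cells sorted in more than a single round as CD4+ CD25+. Whether replicate libraries stand for different animals is not stated in the labels. The p-values therefore describe only how far these libraries scatter, and that scatter may be technical.

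The cell cycle is driven by cyclin-dependent kinases (CDKs), which act only with a cyclin partner. D cyclins with Cdk4 or Cdk6, and then E cyclins with Cdk2, phosphorylate the pocket proteins, which releases E2F factors that switch on genes for DNA synthesis. A later wave of genes for the spindle and chromosome segregation is held down in resting cells by the DREAM complex, built on a pocket protein, and rises in G2 and mitosis. CIP/KIP inhibitors such as Cdkn1a block several CDK complexes and INK4 inhibitors such as Cdkn2c block Cdk4 and Cdk6. Fat-resident Tregs are long-lived tissue cells, and Tregs of lymphoid organs include both resting and dividing cells.

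The libraries held 2178238 to 6260185 counts in VAT and 2069319 to 5328695 counts in spleen. The Treg genes Foxp3, Il2ra, Ikzf2, Ctla4, Tnfrsf18, Cd4, Cd3e and Cd3d were detected in every library, and their summed level was 6897 ± 486 CPM in VAT and 3558 ± 302 CPM in spleen (CPM, counts scaled to a common library size, mean ± SD, n = 17 and 18, here and below). The genes did not all go the same way. Ctla4 had the largest difference (2241 CPM in VAT and 401 CPM in spleen). Cd3e (170.5 CPM in VAT and 327 CPM in spleen) and Cd3d (280 CPM in VAT and 385 CPM in spleen) had lower means in VAT. The labels do not vary the handling of a tissue before the sort, so handling and tissue cannot be told apart for any gene. In bulk samples, fewer cells expressing a gene and less RNA per cell cannot be told apart either. Each library's log2 CPM was also regressed on log2 transcript length, a measure of how far a library favours long transcripts. This length slope had a median of 0.0377 (range -0.0599 to 0.0887) in VAT and -0.0202 (range -0.0956 to 0.0284) in spleen.

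Between tissues, VAT Tregs had more mRNA of most inhibitors, of Ccnd2, Cdk6 and E2f1, and of a part of the mitosis genes, while replication genes went both ways. Of the 47 members, 24 were higher in VAT and 7 lower in edgeR's quasi-likelihood fit, with Benjamini-Hochberg adjusted p-values over all genes. Of all genes tested, 28.4% were higher in VAT and 33.8% lower. The median log2 fold change of VAT over spleen was 0.42 over the members and -0.10 over all genes. Among inhibitors and pocket proteins 5 of 6 were higher and 0 lower, among G1 genes 5 of 9 higher and 3 lower, among mitosis genes 8 of 18 higher and 0 lower, and among replication genes 6 of 14 higher and 4 lower. With library totals in place of TMM scaling, which moved the median of all genes by -0.34, 13 members were higher and 11 lower, and for the replication genes the balance turned to 2 higher and 7 lower. With the length slope as a covariate 15 members were higher and 6 lower, with 3 replication genes in each direction.

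**Figure D1:**
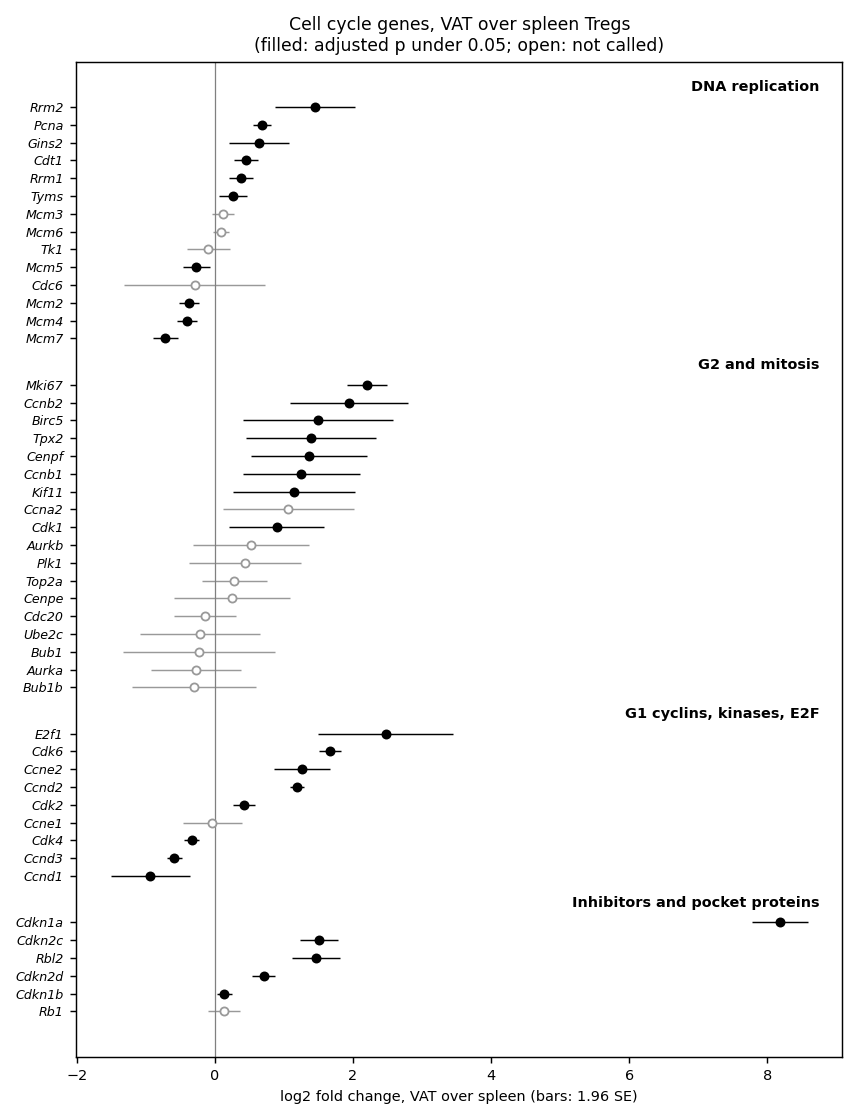
Log2 fold change of VAT over spleen for the 47 genes by role, with bars of 1.96 SE. Filled points passed an adjusted p of 0.05. Cdkn1a lies at 8.18, far to the right of every other member, and the DNA replication genes fall on both sides of 0.

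Cdkn1a encodes the CIP/KIP inhibitor that p53 and other stress signals induce (chromosome 17, 29090976 to 29100727, GRCm38). Its level had a lowest, median and highest value of 275, 385 and 573 CPM in VAT libraries and of 0, 0.975 and 5.86 CPM in spleen libraries. The groups did not overlap. Cdkn1a averaged 393 ± 74.9 CPM in VAT and 1.68 ± 1.63 CPM in spleen, a log2 fold change of 8.18 ± 0.21 (SE; adjusted p = 9.97e-23). The VAT mean was above the spleen mean at 6 of 6 times. The VAT value rested on 24207 counts over 17 libraries and the spleen value on 101 counts over 18 libraries.

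The related CIP/KIP inhibitor gene Cdkn1b (chromosome 6, 134920401 to 134925513) had nearly the same level in both tissues. Its lowest, median and highest values were 191, 225 and 281 CPM in VAT and 150.2, 212 and 244 CPM in spleen, so the groups overlapped widely. The log2 fold change was 0.14 ± 0.05 (adjusted p = 0.0285), and with library totals it was -0.21 (adjusted p = 0.000567). With libraries blocked by time and replicate letter it was 0.14 and the call was lost (adjusted p = 0.054). Within a library, the ratio of Cdkn1a to Cdkn1b counts, with 0.5 added to each count, had a median of 1.68 (range 1.13 to 2.28) in VAT and of 0.00507 (range 0.000545 to 0.0281) in spleen. This and 4 further ratios below were chosen after their values were seen and are given as a description, with no test.

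Of the INK4 inhibitors, Cdkn2c (chromosome 4, 109660876 to 109667189) had lowest, median and highest values of 11.6, 22.0 and 30.5 CPM in VAT and of 1.55, 8.04 and 12.1 CPM in spleen. Only the bottom of the VAT range touched the top of the spleen range. Cdkn2c was 2.84-fold higher in VAT (log2 fold change 1.51 ± 0.14, adjusted p = 5.48e-12). Cdkn2d (chromosome 9, 21288410 to 21291407) had 83.5, 108 and 189 CPM in VAT and 45.9, 74.0 and 88.6 CPM in spleen, with a small overlap. It was 1.63-fold higher in VAT (0.70 ± 0.08, adjusted p = 2.95e-09). For both, the VAT mean exceeded the spleen mean at 6 of 6 times.

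The pocket protein genes Rb1 and Rbl2 behaved differently. Rb1, the retinoblastoma protein gene (chromosome 14, 73183673 to 73325822), had lowest, median and highest values of 16.5, 30.2 and 42.0 CPM in VAT and of 10.8, 26.2 and 41.2 CPM in spleen. Its ranges overlapped almost whole and it did not pass the test (0.13 ± 0.12, adjusted p = 0.335). Rbl2, which encodes the pocket protein of the DREAM complex that represses cell cycle genes in resting cells (chromosome 8, 91070057 to 91123844), had 161, 318 and 579.8 CPM in VAT and 67.1, 131 and 172 CPM in spleen.

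Rbl2 was 2.76-fold higher in VAT (1.46 ± 0.17, adjusted p = 7.68e-08), with an overlap only at the lowest VAT library. Its VAT libraries were widely spread, with an SD of 159 CPM around a mean of 359 CPM, and libraries of the same time lay far apart, as at ZT16 with 212, 226 and 539 CPM. With the length slope as a covariate the log2 fold change was 0.66 (adjusted p = 0.00815). Within VAT, its deviations from the time mean went with the length slope (Pearson's r = 0.85, permutation p = 0.0144; Spearman's rho = 0.82, permutation p = 0.0127; n = 17; r = 0.85 without the 2 libraries of most extreme slope). This was not called among the 94 correlations of members with the slope in either tissue, a measure added after the values were seen (adjusted permutation p = 0.27), and 0 of the 94 were called. Rbl2 did not stand alone. In VAT, Cdkn2d (r = -0.68, permutation p = 0.00551) and Cdkn1a (r = -0.74, permutation p = 0.0135) went the other way, and 2 of the 6 genes of this group had a positive r. In spleen, Pcna had the lowest p of all (r = -0.66, permutation p = 0.00095, adjusted permutation p = 0.0893).

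Per kilobase of exon, so that genes can be compared, the inhibitor levels in VAT were highest for Cdkn1a, at 110.5 CPM per kb, followed by Cdkn2d at 72.1, Cdkn1b at 49.9, Rbl2 at 47.5, Cdkn2c at 8.28 and Rb1 at 4.99 CPM per kb. In spleen the order was Cdkn1b at 45.6, Cdkn2d at 44.9, Rbl2 at 16.2, Rb1 at 4.46, Cdkn2c at 2.98 and Cdkn1a at 0.473 CPM per kb. Cdkn1a was thus the top of the VAT order and the bottom of the spleen order. Cdkn1b and Rbl2 in VAT, and Cdkn1b and Cdkn2d in spleen, were neighbours that lay close to each other.

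**Figure D2:**
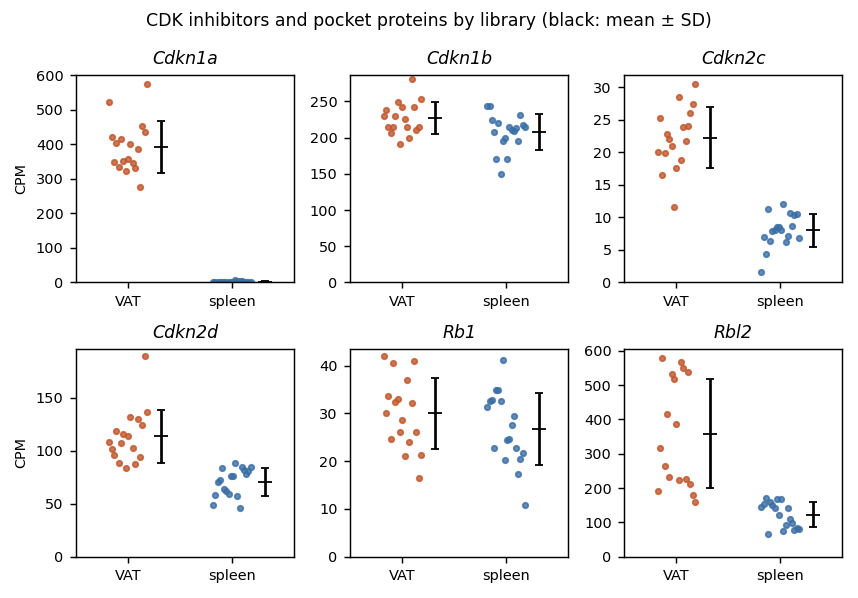
Level in CPM of the 6 inhibitor and pocket protein genes in each of 17 VAT and 18 spleen libraries, with mean ± SD in black and an axis from 0 for each gene. Cdkn1a lies between 275 and 573 CPM in VAT and at or under 5.86 CPM in spleen, and Rbl2 is widely spread within VAT.

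The D cyclins, which bind Cdk4 and Cdk6 in early G1, did not move together. Ccnd2 (chromosome 6, 127125162 to 127152193) had lowest, median and highest values of 1053, 1396 and 1627 CPM in VAT and of 534, 605 and 762 CPM in spleen. The groups did not overlap, and Ccnd2 was 2.28-fold higher in VAT (log2 fold change 1.19 ± 0.05, adjusted p = 5.99e-22). Ccnd3 (chromosome 17, 47505051 to 47599691) had 125, 179 and 236 CPM in VAT and 210.5, 269 and 345 CPM in spleen. It was 1.51-fold lower in VAT (-0.59 ± 0.06, adjusted p = 8.25e-12) and lower at 6 of 6 times, with a small overlap of the groups. Ccnd1 (chromosome 7, 144929931 to 144939925), scarce in both tissues, had 0, 1.76 and 4.45 CPM in VAT and 1.30, 3.41 and 6.58 CPM in spleen. Its groups overlapped, and it was lower in VAT (-0.94 ± 0.29, adjusted p = 0.00531; 116 counts in VAT and 236 in spleen).

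Ccnd2 was the main D cyclin mRNA in both tissues, at 148 CPM per kb in VAT and 65.3 CPM per kb in spleen. Ccnd3 followed at 19.9 CPM per kb in VAT and 30.1 CPM per kb in spleen, and Ccnd1 was at 0.419 CPM per kb in VAT and 0.723 CPM per kb in spleen. The ratio of Ccnd2 to Ccnd3 counts within a library had a median of 8.35 (range 5.75 to 9.68) in VAT and of 2.37 (range 1.77 to 3.02) in spleen, with no overlap.

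The partner kinases split in the same manner. Cdk6 (chromosome 5, 3341485 to 3531008) had lowest, median and highest values of 202, 277 and 349 CPM in VAT and of 56.3, 86.9 and 116 CPM in spleen. The groups did not overlap, and Cdk6 was 3.17-fold higher in VAT (1.66 ± 0.08, adjusted p = 1.27e-20). Cdk4 (chromosome 10, 127063534 to 127067920) had 104, 132 and 189 CPM in VAT and 138, 177 and 209.5 CPM in spleen. It was 1.26-fold lower in VAT (-0.34 ± 0.06, adjusted p = 1.76e-06), with overlapping groups, and lower at 6 of 6 times. The ratio of Cdk6 to Cdk4 counts had a median of 2.03 (range 1.07 to 3.14) in VAT and of 0.52 (range 0.287 to 0.673) in spleen, with no overlap.

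E2f1, an activating E2F factor (chromosome 2, 154559407 to 154569892), was near the detection limit in spleen. Its lowest, median and highest values were 0.277, 2.25 and 9.59 CPM in VAT and 0, 0.335 and 2.46 CPM in spleen, where 7 of 18 libraries held no count. It was higher in VAT (2.47 ± 0.50, adjusted p = 5.22e-05; 191 counts in VAT and 39 in spleen), with overlapping groups. Of the partners of Cdk2, Ccne2 (7.55 ± 3.09 CPM in VAT and 3.19 ± 1.597 CPM in spleen, 1.26 ± 0.21) was higher in VAT and Ccne1 (10.5 ± 5.92 CPM in VAT and 10.6 ± 4.09 CPM in spleen, -0.04 ± 0.22) did not pass. Cdk2 itself was 1.34-fold higher in VAT (0.42 ± 0.08), a call that was lost with library totals.

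**Figure D3:**
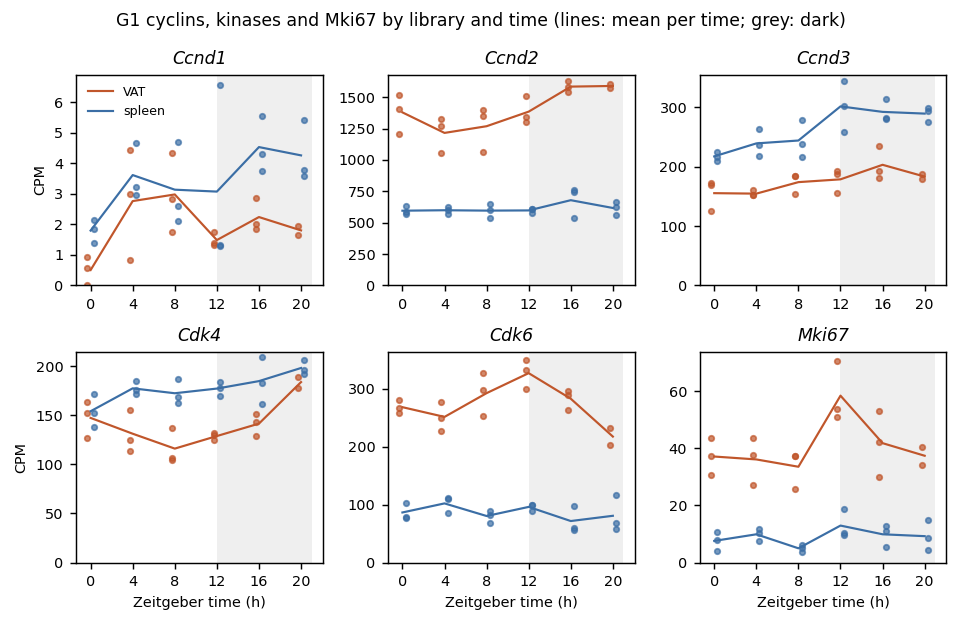
Level in CPM of 3 D cyclins, Cdk4, Cdk6 and Mki67 against Zeitgeber time, with a point per library and a line through the mean of each time; the dark phase is grey. Ccnd2, Cdk6 and Mki67 are higher in VAT at all 6 times, and Ccnd1, Ccnd3 and Cdk4 have lower VAT means at all 6 times.

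DNA replication genes had a summed level of 1018 ± 83.8 CPM in VAT and 986 ± 68.8 CPM in spleen. Members were called in both directions, 6 higher and 4 lower in VAT, and 2 higher and 7 lower with library totals. Rrm2, the regulated subunit of the ribonucleotide reductase that makes DNA precursors (chromosome 12, 24708241 to 24714146), had lowest, median and highest values of 15.4, 34.6 and 65.9 CPM in VAT and of 2.88, 11.2 and 43.0 CPM in spleen. It was 2.73-fold higher in VAT (1.45 ± 0.29, adjusted p = 0.00013), with overlapping groups. Pcna, the sliding clamp of the replicative polymerases (chromosome 2, 132249162 to 132253314), had 79.0, 93.4 and 128 CPM in VAT and 49.5, 58.9 and 80.7 CPM in spleen. It was 1.6-fold higher in VAT (0.68 ± 0.07, adjusted p = 2.63e-11), and its groups overlapped only at their edges.

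The genes of the MCM helicase, a ring that opens the DNA at replication origins, were level or lower in VAT. Mcm7 (chromosome 5, 138164583 to 138172422) had lowest, median and highest values of 35.3, 51.0 and 70.5 CPM in VAT and of 58.0, 87.6 and 117 CPM in spleen. It was 1.65-fold lower in VAT (-0.72 ± 0.09, adjusted p = 7.55e-09), with overlapping edges. Mcm4 (-0.40 ± 0.08), Mcm2 (-0.38 ± 0.07) and Mcm5 (-0.27 ± 0.10) were also lower, each at 6 of 6 times, while Mcm3 (0.12 ± 0.08) and Mcm6 (0.09 ± 0.06) did not pass. With library totals Mcm3 and Mcm6 turned to -0.23 and -0.26, and with the length slope Mcm5 turned to 0.04. Mcm6 was the most abundant of the 6 per length, at 59.7 CPM per kb in VAT and 55.2 CPM per kb in spleen, and Mcm7 was the lowest in VAT, at 11.7 CPM per kb, against 19.4 CPM per kb in spleen.

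Of the remaining replication genes, Cdt1, which loads the helicase (0.45 ± 0.09), Rrm1, the large subunit of ribonucleotide reductase (0.38 ± 0.09), Gins2, a subunit of the active helicase (0.64 ± 0.22), and Tyms, the thymidylate synthase gene (0.26 ± 0.10), were higher in VAT. With library totals Tyms turned to -0.08 and the other 3 calls were lost, and with the length slope the calls of Rrm1 (0.33, adjusted p = 0.0505), Gins2 (0.78, adjusted p = 0.0798) and Tyms (0.31, adjusted p = 0.109) were lost with folds about as large. The thymidine kinase gene Tk1 (-0.10 ± 0.16) and the helicase loader gene Cdc6 (-0.30 ± 0.52) did not pass. The ratio of Pcna to Mcm7 counts within a library had a median of 1.88 (range 1.36 to 3.13) in VAT and of 0.681 (range 0.515 to 0.93) in spleen, with no overlap.

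Mki67, the gene of the proliferation antigen that coats mitotic chromosomes (chromosome 7, 135689784 to 135716361), led the mitosis genes. Its lowest, median and highest values were 25.8, 37.6 and 70.4 CPM in VAT and 3.78, 9.21 and 18.7 CPM in spleen. The groups did not overlap, and Mki67 was 4.6-fold higher in VAT (40.9 ± 11.3 CPM in VAT and 9.08 ± 4.03 CPM in spleen; log2 fold change 2.20 ± 0.15, adjusted p = 1.01e-15). Top2a, the DNA topoisomerase that untangles chromosomes before division (chromosome 11, 98992943 to 99024189), had 6.01, 12.2 and 33.7 CPM in VAT and 2.76, 10.96 and 38.7 CPM in spleen. Its ranges overlapped almost whole and it did not pass (0.28 ± 0.24, adjusted p = 0.321). Both genes are usual markers of dividing cells, yet the ratio of Mki67 to Top2a counts within a library had a median of 3.29 (range 1.31 to 5.55) in VAT and of 0.792 (range 0.223 to 1.59) in spleen.

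Ccnb2, a B cyclin that drives entry into mitosis with Cdk1 (chromosome 9, 70407692 to 70421547), had lowest, median and highest values of 2.25, 9.97 and 21.5 CPM in VAT and of 0, 1.89 and 11.2 CPM in spleen. It was 3.85-fold higher in VAT (1.94 ± 0.44, adjusted p = 0.00033), with overlapping groups. Birc5, which encodes survivin of the chromosomal passenger complex (chromosome 11, 117849251 to 117855743), had 0, 2.91 and 11.1 CPM in VAT and 0, 0.88 and 4.49 CPM in spleen. It was higher in VAT (1.497 ± 0.55, adjusted p = 0.0199), on only 201 counts in VAT and 102 in spleen, and the groups overlapped.

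The spindle genes Tpx2 (1.39 ± 0.48) and Kif11 (1.15 ± 0.45), the kinetochore gene Cenpf (1.37 ± 0.43), Ccnb1 (1.25 ± 0.43) and Cdk1 (0.89 ± 0.35) were also higher in VAT. The other 9 members beside Top2a did not pass, with Ccna2 (1.06 ± 0.48, adjusted p = 0.0552) nearest. The others were Aurkb (0.52 ± 0.43), Plk1 (0.44 ± 0.42), Cenpe (0.25 ± 0.43), Cdc20 (-0.15 ± 0.23), Ube2c (-0.22 ± 0.44), Bub1 (-0.23 ± 0.56), Aurka (-0.27 ± 0.33) and Bub1b (-0.31 ± 0.46). They encode mitotic kinases, spindle checkpoint proteins and parts of the machinery that ends mitosis.

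Apart from Mki67 and Top2a no member of this group had more than 595 counts over a tissue. With the length slope as a covariate Mki67 (log2 fold change 1.90) and Cdk1 were the only mitosis genes still called higher in VAT, and with library totals they were Mki67, Ccnb2 and Cenpf. Of the calls lost with the length slope, Ccnb1 (1.41, adjusted p = 0.0819) and Cenpf (1.24, adjusted p = 0.126) kept folds near those above, while Ccnb2 (0.83), Kif11 (0.77), Birc5 (0.68) and Tpx2 (0.50) had smaller ones. Without replicate C of VAT at ZT20, 5 of the 18 were called. With libraries blocked by time and replicate letter 5 were called as well, and Birc5, Cenpf and Tpx2 were lost.

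**Figure D4:**
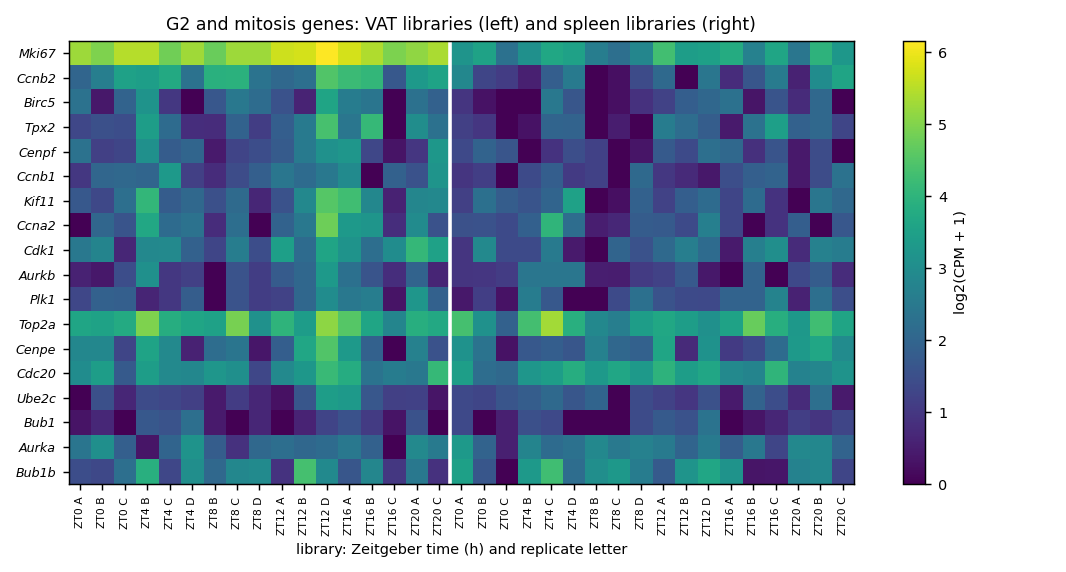
Log2(CPM + 1) of the 18 G2 and mitosis genes (rows) in 17 VAT libraries (left of the white line) and 18 spleen libraries (right), ordered by Zeitgeber time. Mki67 is brighter in every VAT library than in any spleen library, while Top2a and Cdc20 have similar shades on both sides.

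The summed level of the 18 mitosis genes was 128 ± 59.4 CPM in VAT (range 58.1 to 305) and 70.9 ± 24.7 CPM in spleen (range 23.4 to 133), with overlapping groups. The highest library was replicate D of VAT at ZT12. It also had the highest CD8 T cell marker sum of all libraries, at 36.8 CPM. That sum was all Cd8b1, and Cd8a, the other marker of the list, was not detected there. Cd8a had no count in 15 VAT libraries. Without replicate D of VAT at ZT12, 6 of the 18 mitosis genes and 22 of the 47 members were called higher in VAT. The part of other cells in that library was not tested.

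The promoters of these genes are shown because mitosis and replication genes are known to carry different elements. Late cell cycle genes often hold the cell cycle genes homology region (CHR, read by the DREAM complex) beside CCAAT boxes, and replication genes often hold E2F sites. Windows of 280 bases, from 250 before to 30 after the start of transcription, are given 5′ to 3′ on the gene's strand from RefSeq (GRCm38.p6). Capitals mark the CHR word TTTGAA, the word CCAAT, and the E2F words TTTGGCGC, TTTCGCGC, TTTGCCGC and TTTCCCGC, each on either strand. All 4 genes lie on the minus strand: Mki67 at chr7:135716350-135716629, Top2a at chr11:99024160-99024439, Ccnb2 at chr9:70421525-70421804 and Mcm7, at 1 of its 2 starts, at chr5:138171854-138172133.
Mki67: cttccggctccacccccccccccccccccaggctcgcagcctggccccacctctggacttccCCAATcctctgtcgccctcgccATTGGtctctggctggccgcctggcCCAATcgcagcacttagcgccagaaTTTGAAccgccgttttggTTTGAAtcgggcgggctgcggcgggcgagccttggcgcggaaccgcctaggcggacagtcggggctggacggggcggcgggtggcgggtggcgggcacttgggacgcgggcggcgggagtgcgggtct
Top2a: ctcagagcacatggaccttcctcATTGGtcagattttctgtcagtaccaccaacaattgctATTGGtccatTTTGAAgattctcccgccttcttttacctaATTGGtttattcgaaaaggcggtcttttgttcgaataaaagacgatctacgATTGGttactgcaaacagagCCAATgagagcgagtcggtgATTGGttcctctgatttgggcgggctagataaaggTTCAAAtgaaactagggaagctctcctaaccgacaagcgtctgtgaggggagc
Ccnb2: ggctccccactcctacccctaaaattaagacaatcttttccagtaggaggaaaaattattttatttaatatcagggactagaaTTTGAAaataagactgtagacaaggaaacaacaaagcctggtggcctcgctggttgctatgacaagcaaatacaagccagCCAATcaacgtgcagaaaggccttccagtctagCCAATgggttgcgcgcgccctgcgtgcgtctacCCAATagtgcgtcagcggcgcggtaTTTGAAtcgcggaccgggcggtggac
Mcm7: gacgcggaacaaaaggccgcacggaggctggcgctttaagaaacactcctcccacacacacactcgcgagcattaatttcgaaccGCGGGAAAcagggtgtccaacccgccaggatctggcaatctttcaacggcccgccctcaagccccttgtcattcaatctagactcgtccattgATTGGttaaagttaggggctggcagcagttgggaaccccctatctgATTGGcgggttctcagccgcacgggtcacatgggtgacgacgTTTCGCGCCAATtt

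Mki67 and Top2a, whose levels differed so much in their contrast between tissues, both had 2 CHR words, with 3 CCAAT words in Mki67 and 6 in Top2a. Ccnb2 had 2 and 3 of these words. Mcm7 had no CHR word, 3 CCAAT words and 2 E2F words, of which TTTCGCGC shares letters with a CCAAT word. This start of Mcm7 was shown because it holds an E2F word, so its E2F content was fixed by the choice. The other start of Mcm7 had 1 CCAAT word and no CHR or E2F word in its window of 300 bases. Over the whole windows of 300 bases, 38 of the 47 members were matched by symbol. The CHR word was in 11 of 15 mitosis genes (73.3%) and 1 of 12 replication genes (8.33%), and in 20.2% of all 27025 genes with a promoter. CCAAT was in 14 of 15 mitosis genes (93.3%), 8 of 12 replication genes (66.7%) and 41.1% of all genes. An E2F word was in 1 of 15 mitosis genes (6.67%), 6 of 12 replication genes (50%) and 2.6% of all genes.

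The words did not set the called mitosis genes apart by count. CHR was in 5 of 7 matched mitosis genes called higher in VAT and in 6 of 8 that were not called. A match is a description of letters in the window and shows no binding.

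**Figure D5:**
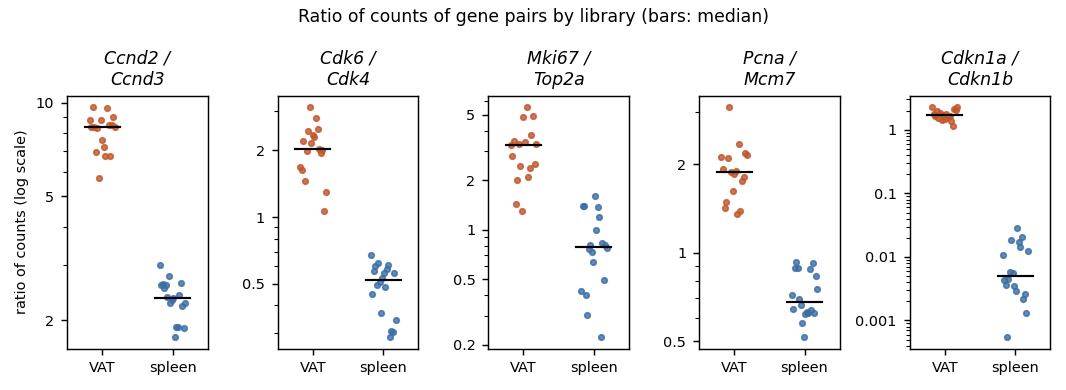
Ratio of the counts of 5 gene pairs in each library on a log scale, with a point per library and the median as a bar. Within each library pair members share depth and scaling, and VAT lies above spleen without overlap for Ccnd2 over Ccnd3, Cdk6 over Cdk4, Pcna over Mcm7 and Cdkn1a over Cdkn1b, with an overlap for Mki67 over Top2a.

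Other genes of the same pathways, taken from lists written from general knowledge, went both ways. Beside their counts stand all genes tested, of which 28.4% were higher in VAT and 33.8% lower, with a median log2 fold change of -0.10. Of 38 further replication genes, 14 were higher in VAT and 7 lower, with a median log2 fold change of 0.16. The largest were Lig1, the ligase that seals lagging-strand fragments (35.3 CPM in VAT and 15.3 CPM in spleen, log2 fold change 1.23 ± 0.13), Slbp, which binds histone mRNA (190.4 CPM in VAT and 83.7 CPM in spleen), and Gmnn, the inhibitor of Cdt1 (20.3 CPM in VAT, against 9.95 CPM in spleen). Of 18 further G1 genes tested, 4 were higher and 4 lower. The INK4 inhibitor gene Cdkn2b was higher in VAT (20.4 CPM in VAT and 0.793 CPM in spleen, 5.37 ± 0.33), as was Fzr1, an activator of the anaphase-promoting complex (0.71 ± 0.19). Rbl1, the pocket protein gene most like Rbl2, was lower (27.0 CPM in VAT, against 46.9 CPM in spleen, -0.79 ± 0.14).

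Of 43 further mitosis genes tested, 12 were higher in VAT and 6 lower, with a median log2 fold change of 0.21. The share higher was near the 28.4% of all genes, and the share lower was below the 33.8% of all genes. Kif23, a kinesin of the central spindle, was higher (33.8 CPM in VAT and 3.53 CPM in spleen, 3.49 ± 0.23), as was the spindle gene Hmmr (2.79 CPM in VAT and 0.585 CPM in spleen, 2.89 ± 0.57). The kinase gene Melk was lower (1.42 CPM in VAT and 7.87 CPM in spleen, -2.95 ± 0.35). The summed level of this list was 979.9 CPM in VAT and 1590 CPM in spleen, most of it in spleen from Smc4, a core subunit of condensin, which had 217 CPM in VAT libraries and 1136 CPM in spleen libraries (-2.37 ± 0.05). Smc4 was named after its values were seen.

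Of 18 genes tested from a list of targets of p53, the factor known to induce Cdkn1a, 8 were higher in VAT and 2 lower. Of all genes, 28.4% were higher and 33.8% lower. The median log2 fold change of the list was 0.33. The largest were Pmaip1, a pro-apoptotic BH3 protein gene (389 CPM in VAT and 12.6 CPM in spleen, 4.87 ± 0.13), the junction gene Perp (6.43 CPM in VAT and 0.531 CPM in spleen, 4.68 ± 0.57) and the kinase gene Plk2 (103 CPM in VAT and 4.39 CPM in spleen, 4.51 ± 0.24). The remaining 8 of the 18 did not pass.

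Few members were called for a change over the day, a share near that of all genes. A gene not called may still change. The fitted log2 amplitudes of mitosis genes, from trough to peak, had SEs in VAT from 0.30 (Mki67) to 1.17 (Bub1). Their median amplitude was 0.92 in VAT and 1.00 in spleen, against 0.52 and 0.48 over all genes, and 0 of the 18 were called. A 24 h cosine was called for 1 of the 47 genes in VAT, Cdk4, against 1.88% of all genes, and for 1 in spleen, Ccnd3, against 1.99% of all genes. At an unadjusted p under 0.05 there were 6 members in VAT (12.8%, against 17.5% of all genes) and 6 in spleen (12.8%, against 15.6% of all genes), a share below that of all genes. For the difference in rhythm between tissues 0 members were called, against 0.00629% of all genes, and 3 (6.38%, against 9.09% of all genes) had an unadjusted p under 0.05, namely Cdkn1a, Mcm4 and Cdk4.

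In VAT, Cdk4 had 152, 163 and 127 CPM at ZT0, 156, 125 and 114 CPM at ZT4, and 104, 137 and 107 CPM at ZT8. It had 129.7, 125 and 132 CPM at ZT12, 129, 152 and 143 CPM at ZT16, and 189 and 178 CPM at ZT20. The trough was thus at ZT8 and both ZT20 libraries were above every other one. The fitted amplitude from trough to peak was 0.52 ± 0.12 on the log2 scale, with the peak at ZT20.4 (adjusted p = 0.0384), against 0.17 ± 0.11 in spleen (adjusted p = 0.689). The call in VAT was lost without the ZT20 libraries (amplitude 0.38, adjusted p = 0.551), with library totals (0.111) and with the length slope (0.428). Leaving out a library in turn gave adjusted p values of 0.00911 to 0.182.

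In spleen, Ccnd3 had 210.5, 225 and 217 CPM at ZT0, 236, 219 and 263 CPM at ZT4, and 216, 239 and 278 CPM at ZT8. It had 258, 345 and 303 CPM at ZT12, 281, 315 and 282 CPM at ZT16, and 299, 295 and 275 CPM at ZT20. Levels were lowest at ZT0 and higher in the dark phase, with some overlap between neighbouring times. The amplitude was 0.45 ± 0.11, with the peak at ZT14.9 (adjusted p = 0.0472). In VAT, Ccnd3 had an amplitude of 0.36 ± 0.11 and a peak at ZT15.2 and was not called (adjusted p = 0.136), and the difference between tissues had an adjusted p of 0.966. The spleen call was lost with library totals (amplitude 0.40, adjusted p = 0.0763), without the ZT20 libraries (0.44, adjusted p = 0.058) and with the length slope (0.41, adjusted p = 0.0982), at amplitudes close to that of all libraries, and leaving out a library in turn gave adjusted p values of 0.0261 to 0.121.

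The nearest members that edgeR did not call were Ccnd2 in VAT (amplitude 0.41 ± 0.10, peak at ZT17.8, adjusted p = 0.053) and Mcm4 in VAT (0.71 ± 0.18, peak at ZT10.1, adjusted p = 0.0602). DESeq2 called both (adjusted p = 0.0247 for Ccnd2 and 0.0194 for Mcm4), as did edgeR with no filter on low counts (0.0311 and 0.0209). Neither was called with library totals, with the length slope or without the ZT20 libraries, where 0 members were called in VAT. Mcm4 averaged 118 ± 10.4 CPM at ZT8 and 54.6 ± 6.34 CPM at ZT20 in VAT. The 2 VAT libraries at ZT20 had length slopes of -0.0472 and -0.0599, below every other VAT library. Within VAT, the deviations of Mcm4 from the time mean had a Pearson's r of 0.71 with the length slope (permutation p = 0.032, adjusted permutation p = 0.354, n = 17). Spearman's rho was 0.65 (permutation p = 0.0472). These deviations leave out the course over the day, so they do not test whether the slope bears on it. Cdkn1a in spleen ranged from a mean of 0.59 CPM at ZT4 to 3.21 CPM at ZT12 and was not called by edgeR (adjusted p = 0.173), but it was by DESeq2 (adjusted p = 0.00229) and by edgeR with no filter (adjusted p = 0.000214). In VAT it ranged from 343.5 CPM at ZT8 to 505 CPM at ZT20 (adjusted p = 0.586). Mki67 had its highest mean at ZT12 in both tissues, with 58.4 ± 10.5 CPM in VAT and 12.9 ± 4.99 CPM in spleen, and its course was not called in VAT (adjusted p = 0.549) or spleen (adjusted p = 0.737).

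Between libraries of the same tissue and time, most mitosis genes deviated to the same side as Mki67, with no single correlation called. Correlations of other genes with Mki67 were not computed, so no share over all genes can be set beside the counts that follow. The median Pearson's r over the other 17 mitosis genes was 0.47 in VAT, with 16 of 17 positive, and 0.31 in spleen, with 15 of 17 positive. Over 14 replication genes it was 0.23 in VAT, with 11 of 14 positive, and -0.05 in spleen, with 6 of 14 positive, and over 9 G1 genes it was 0.12 in VAT and 0.04 in spleen. Over all 46 other members, 35 were positive in VAT and 27 in spleen. Differences between these medians were not tested. None of the 92 correlations (46 genes in each tissue) passed a permutation test with Benjamini-Hochberg adjustment, by Pearson's r or Spearman's rho, and at an unadjusted p under 0.05 there were 8 in VAT and 1 in spleen by Pearson's r. The medians for mitosis genes without the 2 libraries of most extreme Mki67 were 0.47 in VAT and 0.21 in spleen.

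Transcripts of other cell types moved with tissue, and their part in the member results was not tested. B cell markers summed to 177 CPM (range 93.6 to 305) in VAT and to 1840 CPM (range 1197 to 3084) in spleen. Ighm alone had 159 CPM in VAT, against 1804 CPM in spleen. Pax5, a transcription factor gene that defines B cells, averaged 0.344 CPM in VAT, against 0.226 CPM in spleen. Germinal centre B cell markers, whose cells divide fast, were higher in VAT, with a sum of 57.0 CPM (range 33.1 to 71.1) in VAT and of 25.7 CPM (range 9.30 to 40.7) in spleen (adjusted permutation p = 2.17e-05). Of the 5 markers 4 were higher in VAT, and S1pr2 made up nearly all of the sum, with 55.5 CPM in VAT and 24.4 CPM in spleen. Progenitor markers summed to 11.3 CPM (range 3.88 to 26.1) in VAT and to 1.13 CPM (range 0 to 2.67) in spleen, mostly Kit, with Gata2 at 0 in 13 libraries of each tissue.

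Marker sums of plasma cells, NK cells or ILCs, macrophages or monocytes, erythroid cells, adipocytes and endothelial cells were lower in VAT, and those of dendritic cells and stromal or mesothelial cells were higher. The endothelial sum was nearly all Pecam1 (33.0 CPM in VAT and 257 CPM in spleen), and the adipocyte sum nearly all Lipe (13.9 CPM in VAT and 24.3 CPM in spleen). Against their sums, Sdc1, Ncr1, Klre1, Cd68 and Cidec had higher means in VAT, and Msln a lower one. Of the 4 dendritic cell markers only Xcr1 was higher (20.1 CPM in VAT and 0.477 CPM in spleen), while Zbtb46 (5.90 CPM in VAT and 15.4 CPM in spleen), Flt3 and Siglech had lower means in VAT. In all, 11 of 13 marker sums differed by the permutation test, and those of CD8 T cells (15.0 CPM in VAT and 12.6 CPM in spleen, adjusted permutation p = 0.364) and neutrophils (0.55 CPM in VAT and 0.472 CPM in spleen, adjusted permutation p = 0.84) did not pass. Erythroid markers reached 102 CPM in replicate C of spleen at ZT20 and plasma cell markers 93.4 CPM in replicate C of spleen at ZT16, and without either library the counts of members called stayed within 20 to 25 higher and 6 to 7 lower in VAT.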

How the data were processed

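The authors deposited unscaled read counts for each gene symbol. STAR 2.7.3a, featureCounts and the build mm10 are named in the submitters' processing notes; the annotation, the strand setting and how multiply mapped reads were treated are not stated in the sources at hand. Per the labels' protocols, oligo-dT-primed cDNA was amplified without molecular identifiers and read as pairs of 25 nt. Without strand, reads of overlapping genes cannot be told apart: exons of 18 of the 47 members overlap another gene in GENCODE M21 (Mcm7, Tk1, Gins2, Top2a, Ccna2, Cdc20, Ube2c, Plk1, Ccnd1, Ccnd2, Ccnd3, Ccne2, Cdk2, Cdk4, Cdk6, Cdkn1a, Rb1 and Rbl2), and Tyms, Pcna, Ccnb1, Ccnb2 and Ccnd3 have annotated pseudogenes that could share reads.

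Counts were analysed with edgeR 4.0.16 in R 4.3.3: filterByExpr over the 12 groups of tissue and time, TMM factors and robust quasi-likelihood fits. VAT minus spleen was the mean of 6 groups minus the mean of 6. Rhythm was a 24 h cosine and sine per tissue in 1 model, with amplitudes from trough to peak. P-values were adjusted by Benjamini-Hochberg over 15910 genes, with a threshold of 0.05. Log2 CPM for correlations used a prior count of 2. Levels per kilobase used exon-union lengths of GENCODE M21. Permutation tests used scipy 1.17.1. The fits were tested on simulated data.

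The members, lists and tests were chosen with earlier results of these data known. Described in full were Mki67, the inhibitors and pocket proteins, the D cyclins, the 3 called members of largest change per role, and members called for rhythm; from each further list at most the 3 called genes of largest change. Alternatives were library totals, RLE factors, DESeq2 1.42.0, no filter, replicate blocks, the length slope, other forms and samples for the time course, and leaving out each of 35 libraries. Within a group, chi-square statistics per gene of 4.10 to 20.0 over 34 pairs showed no duplicate libraries.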

Additional observations from a re-analysis of the deposited data

How the results depend on the processing

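Members called higher and lower in VAT, 24 and 7, became 13 and 11 with library totals, 15 and 6 with the length slope, and 20 to 25 and 6 to 7 when each of 35 libraries was left out. Over all genes, 4520 higher and 5376 lower became 2856 and 8514 with library totals, and 3835 and 4182 with the length slope. With library totals 4 members reversed: Tyms (-0.084), Mcm3 (-0.23), Mcm6 (-0.26) and Cdkn1b (-0.21). With the length slope Mcm5 reversed (0.039). RLE factors, DESeq2 and no filter gave 24 or 25 higher and 7 lower. Why these counts moved was not tested.

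The number of members called rhythmic in VAT, 1, became 0 with library totals, RLE factors, the replicate block by letter, the length slope, VAT libraries alone and without the ZT20 libraries. It became 3 with DESeq2 and with no filter, 2 for any difference between the 6 times, and 0 to 3 with a library left out. Over all genes, 299 called in VAT became 663 with DESeq2, 1572 with no filter and 813 for any difference. They became 196 with library totals, 27 with the length slope and 17 without the ZT20 libraries. In spleen, 1 became 0 with library totals, the replicate block, the length slope, any difference between times and without the ZT20 libraries, 2 with DESeq2, 4 with no filter, and 0 to 1 with a library left out. All genes called in spleen, 316, became 853 with DESeq2, 1446 with no filter, 312 with library totals and 106 with the length slope. The call of Ccnd3 in spleen was lost in 27 of the 35 omissions. For the difference in rhythm, 0 became 1 with DESeq2 (Cdkn1a, adjusted p = 0.0202) and 3 with no filter. Over all genes, 1 became 22 with DESeq2 and 1547 with no filter, where 47525 genes were tested. Marker sums called were 11 of 13, and 10 with library totals, where the dendritic cell sum was lost.

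Replicate letters did not pair the tissues: over 17 pairs of VAT and spleen libraries of the same time and letter, the correlation of deviations ran from -0.11 to 0.06, and 4 of the 17 matched best with their own letter. With the replicate block by letter the members called were 24 higher and 7 lower, and with the block by time and letter 19 higher and 7 lower. The block by time and letter lost the calls of Tyms, Birc5, Cenpf, Tpx2 and Cdkn1b, and left 5 mitosis genes called, against 8. Apart from Mki67, the log2 fold changes of mitosis genes had SEs of 0.23 to 0.56, as did those of E2f1 (0.50) and Cdc6 (0.52), so differences of that size were not detectable for these genes.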
